A study of Mus musculus with 6 samples.

Results

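The mitochondrial Slc25 carriers were examined in cultured mouse fetal liver macrophages that had, or lacked, a functional Ahrr gene. Members were the protein-coding genes of the deposited annotated table whose symbol begins with Slc25a and a number. There were 42 of them among 16111 genes, and all 42 were found by stable identifier in GENCODE mouse release 21 (GRCm38). That annotation lists 47 such genes, and Slc25a21, Slc25a27, Slc25a41, Slc25a48 and Slc25a54 were not analysed here. Uncoupling proteins named Ucp belong to the same protein family but not to the set as defined by symbol.

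The cells were grown from livers of C57BL/6 RCC fetuses (E13.5). Culture lasted 5 weeks, and GM-CSF, which sustains macrophages, made up 2% of the medium. One group was wild-type (3 libraries) and the other AhRR-/-, here called Ahrr-deficient (3 libraries). RNA came from the non-adherent cells. The product of Ahrr holds back AhR, the aryl hydrocarbon receptor, which turns on genes when it binds a ligand. The titles number the samples 1 to 3 in each group. The labels do not say how the allele was made or whether a culture held cells of 1 fetus or of several. The p-values therefore measure only the spread between these samples.

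Slc25 proteins are small carriers with repeated membrane-spanning modules. Most sit in the inner mitochondrial membrane and exchange a solute of the matrix for one of the cytosol: ADP for ATP, phosphate, keto acids, amino acids, acylcarnitines, iron, glutathione and coenzymes. They are made in the cytosol and inserted by the TIM22 complex, and in macrophages they connect glycolysis, lipid synthesis and haem synthesis with the respiratory chain.

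Library totals ranged from 3556106 to 41668336 counts, and Ahrr-deficient replicate 1 was the shallowest. Wild-type replicate 2 stood apart in ribosomal RNA, with 5.28% of its counts on CT010467.1 against at most 0.0679% elsewhere. Values below are in CPM, counts divided by the library total and the TMM factor of edgeR so that libraries share a scale, with the SD over 3 libraries. Ahrr itself fell from 4.85 ± 0.32 to 1.96 ± 0.69 CPM (SD, n = 3; edgeR adjusted p 0.0151), and the call was lost without wild-type replicate 1 (0.0631) or 3 (0.0502). All 8 macrophage markers were in the table, with a summed level of 23081 to 25785 CPM in wild-type and 14479 to 22104 CPM in Ahrr-deficient libraries. Csf1r was lower in the deficient group (edgeR adjusted p 0.0304; 0.0725 to 0.104 in the fits with 1 library left out, except 0.00148 without Ahrr-deficient replicate 1) and Itgax higher (6.96e-04). The erythroid markers, 2 of 10 in the table, summed to 0 to 0.823 CPM and the hepatocyte markers, 2 of 6, to 0.176 to 1.08 CPM, the neutrophil markers, 3 of 9, to 0.688 to 2.98 CPM and stromal and endothelial markers, 3 of 7, to 0.196 to 1.1 CPM. None of the mast cell, basophil, B cell or T cell markers was among the genes analysed. The megakaryocyte marker Itga2b, the 1 of 4 in the table, was lower, at 2.91 ± 0.145 and 1.49 ± 0.407 CPM (SD, n = 3; edgeR adjusted p 0.0147). It was called in 2 of 6 fits with a library left out, those without wild-type replicate 3 (0.046) and Ahrr-deficient replicate 1 (0.00615), and its adjusted p lay between 0.0512 and 0.0997 in the others. The 5 alveolar-type macrophage markers summed to 33519 to 39805 CPM, of which Chil3 made up 31312 to 37916 CPM. Among them Car4 was higher, with 128, 50.2 and 60.3 CPM in the wild-type libraries against 258, 1045 and 758 CPM in the deficient ones (log2 fold change 3.10, edgeR adjusted p 0.00622), and the other 4 were not called. The part of these differences in the results below was not tested. In bulk RNA, fewer cells of a type and less RNA per cell cannot be told apart.

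Levels were compared between carriers only per kilobase of annotated exon, counting every base that is exon in any annotated transcript. This length was 5550 bases for Slc25a3 and 1646 bases for Slc25a5, and the ranks and shares below depend on it. Before division by length, Slc25a3 had 390 CPM and Slc25a5 had 241 CPM in wild-type cells. Slc25a5, the main ADP/ATP translocase of dividing cells, was highest in wild-type cells at 146 ± 10 CPM per kb (SD, n = 3). Slc25a3, which brings in the phosphate needed for ATP synthesis, followed at 70.2 ± 1.7 CPM per kb, and Slc25a4, the translocase known from heart and muscle, at 59.5 ± 2.8 CPM per kb. These 3 genes of oxidative phosphorylation supply held 44.6% to 47.0% of the summed level per kb in wild-type libraries and 48.4% to 51.1% in Ahrr-deficient libraries. The glutathione carrier Slc25a39 (49.4 ± 1.9 CPM per kb), the oxoglutarate carrier Slc25a11 (46.2 ± 1.2) and the citrate carrier Slc25a1 (31.8 ± 1.6) came next. At the low end, 7 members lay under 1 CPM per kb in wild-type cells. The whole set summed to 1996 ± 27.5 CPM in wild-type and 2012 ± 88.3 CPM in Ahrr-deficient cells (SD, n = 3), and the libraries of the groups overlapped.

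**Figure D1:**
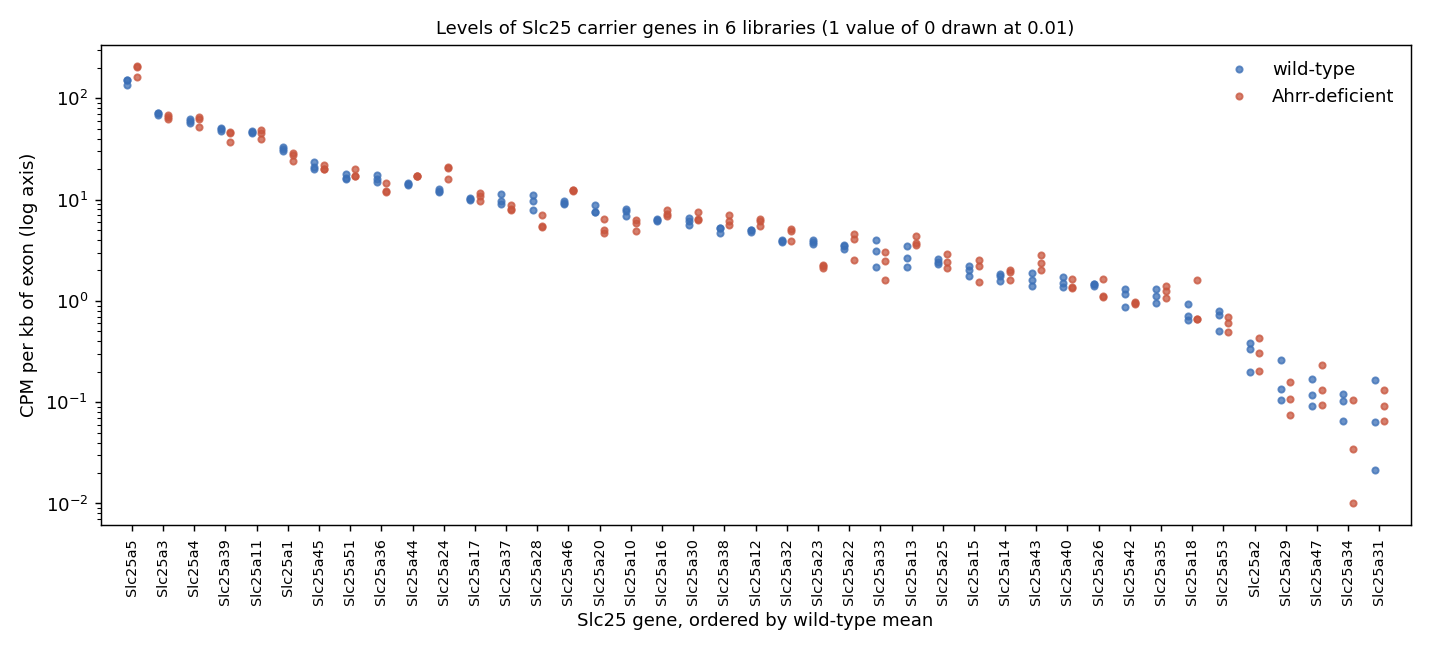
Level of the Slc25 genes, all but 1 of the 42, in CPM per kilobase of exon (log axis), ordered by the wild-type mean, with 1 point per library. Slc25a5, Slc25a3 and Slc25a4 lead, and the points of both genotypes lie close together for most genes across the whole range.

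Of the 42 members, 37 passed the filter on low counts and were tested. At an edgeR adjusted p under 0.05, 4 were higher in Ahrr-deficient cells (Slc25a24, Slc25a46, Slc25a5 and Slc25a44) and 4 were lower (Slc25a23, Slc25a28, Slc25a20 and Slc25a10). These 8 are 21.6% of the tested members, and the share of all 11408 tested genes was 19.6% (9.62% higher, 9.95% lower), so the number of calls is near the background. The median log2 fold change was 0.01 over the members and 0.01 over all genes, and the median absolute value was 0.23 against 0.22. No called member changed by 2-fold or more, the largest absolute log2 fold change being 0.80. Of all tested genes 4.51% were both called and changed by 2-fold or more. With 37 members a count of 0 is not far from that share. At an unadjusted p under 0.05 there were 15 members (40.5%), against 35.8% of all tested genes.

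The count depended on the libraries. It was 14 (7 higher, 7 lower) without Ahrr-deficient replicate 1, with 32.6% of all tested genes called. It was 4 without wild-type replicate 2, wild-type replicate 3, Ahrr-deficient replicate 2 or Ahrr-deficient replicate 3, and 2 without wild-type replicate 1, with 6.07% to 10.3% of all tested genes called. Without both wild-type 2 and Ahrr-deficient 1, a choice made after seeing the data, 10 members were called (5 higher, 5 lower) with 25.6% of all tested genes. With upper-quartile scaling the split was 2 higher and 6 lower, with 19.6% of all tested genes called and a median log2 fold change of -0.02 over them.

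For 19 tested members (9 higher, 10 lower) there was no overlap between the genotypes, which is 51.4%, against 38.8% of all tested genes (19.2% higher, 19.6% lower). All 8 called members were among them, and 11 others were not called.

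**Figure D2:**
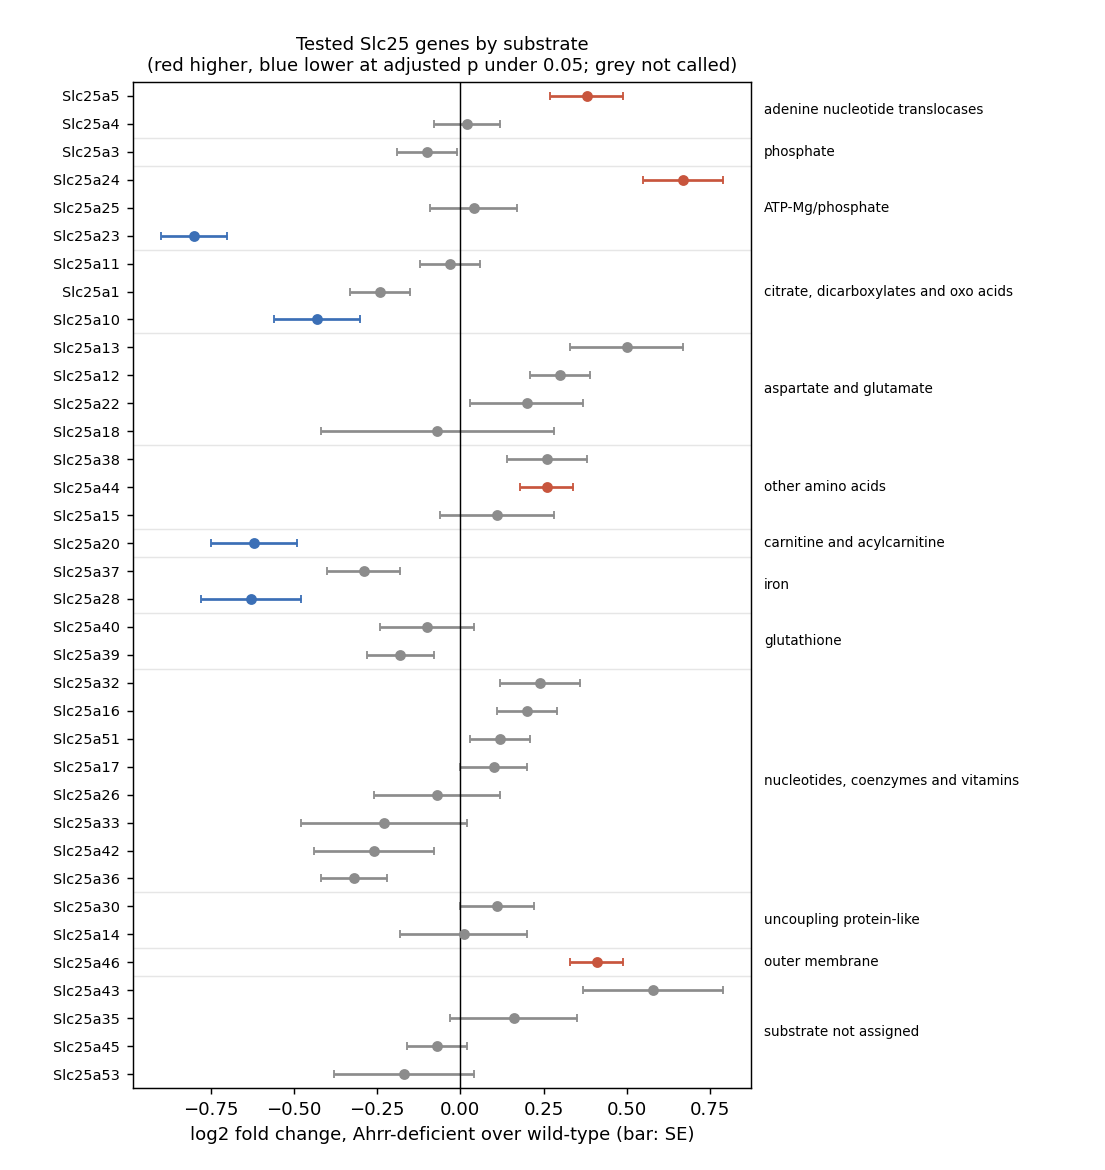
Log2 fold change (Ahrr-deficient over wild-type) with its SE for the tested Slc25 genes, all but 1 of the 37, grouped by the substrate carried. Called genes lie on both sides of 0, from -0.80 for Slc25a23 to 0.67 for Slc25a24, both of which carry ATP-Mg and phosphate.

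Promoter sequence was looked at because AhR and its repressor bind the dioxin response core GCGTG. The 250 bases before the RefSeq start (GRCm38.p6) are shown for the called members whose window holds no annotated exon, with GCGTG or its reverse complement CACGC in capitals. Sequences are from RefSeq and are written 5′ to 3′ on the strand of the gene.
Slc25a23 (chr17:57059864-57060113, minus strand): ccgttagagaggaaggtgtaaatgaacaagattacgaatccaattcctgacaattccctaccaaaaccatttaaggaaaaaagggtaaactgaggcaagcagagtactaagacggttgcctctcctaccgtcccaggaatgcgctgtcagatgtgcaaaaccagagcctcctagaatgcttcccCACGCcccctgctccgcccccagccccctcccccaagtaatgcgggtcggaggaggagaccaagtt
Slc25a28 (chr19:43674882-43675131, minus strand): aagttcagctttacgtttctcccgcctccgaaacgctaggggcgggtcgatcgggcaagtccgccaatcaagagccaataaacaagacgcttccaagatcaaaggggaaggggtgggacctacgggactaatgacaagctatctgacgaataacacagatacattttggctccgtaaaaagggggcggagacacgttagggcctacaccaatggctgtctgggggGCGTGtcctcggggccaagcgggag
Slc25a24 (chr3:109122899-109123148, plus strand): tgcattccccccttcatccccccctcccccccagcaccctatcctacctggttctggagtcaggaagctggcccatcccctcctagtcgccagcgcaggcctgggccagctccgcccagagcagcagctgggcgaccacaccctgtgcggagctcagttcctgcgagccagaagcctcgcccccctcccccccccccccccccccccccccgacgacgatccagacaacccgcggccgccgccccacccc
Slc25a5 (chrX:36795347-36795596, plus strand): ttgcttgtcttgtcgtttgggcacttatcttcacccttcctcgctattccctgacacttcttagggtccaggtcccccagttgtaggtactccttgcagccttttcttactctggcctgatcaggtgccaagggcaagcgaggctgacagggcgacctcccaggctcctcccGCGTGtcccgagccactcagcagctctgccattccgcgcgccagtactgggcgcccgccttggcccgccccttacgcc
The core is found once in the windows of Slc25a23, Slc25a28 and Slc25a5, and is not found in that of Slc25a24. The windows of Slc25a10 and Slc25a20, not printed because they hold annotated exon, have no match either, and Slc25a44 and Slc25a46 had no matched promoter. Slc25a23 and Slc25a28 were lower and Slc25a5 was higher. Promoters were matched for 33 of the 42 members, some with several starts. GCGTG was found on either strand in 52.4% of 42 windows, against 45.2% of 11095 windows of tested genes and 28.2% of all 32851 windows. The E-box CACGTG, bound by Myc and USF factors, was in 8 of the 42 windows (19.0%), against 8.66% of the windows of tested genes; neither motif contains the other. The CRE TGACGTCA was in 4.76% of member windows (2.69% of tested genes) and the GC box GGGCGG in 73.8% (57.8%). These are matches of letters, and binding was not measured.

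The carriers of ATP-Mg and phosphate held the largest fall and the largest rise among called members. These calcium-regulated proteins load or unload the matrix pool of adenine nucleotides. Slc25a23 (ENSMUSG00000046329.14, chromosome 17, 57043711 to 57059863, minus strand) had 20.3, 19.3 and 21 CPM in the wild-type libraries against 12, 11.8 and 11.1 CPM in the deficient ones 1, 2 and 3. The groups were tight and far from overlapping. Its log2 fold change came to -0.80 (SE 0.10, edgeR adjusted p 0.00270), or 1.74-fold higher in wild-type cells. Its paralogue Slc25a24 (ENSMUSG00000040322.10, chromosome 3, 109123149 to 109168457, plus strand) had 40.6, 44.2 and 42 CPM in the wild-type libraries against 54.6, 72.7 and 70.7 CPM in the deficient ones. Replicate 1 was the lowest of the deficient libraries and still above every wild-type library. In log2 terms the fold change was 0.67 (SE 0.12, edgeR adjusted p 0.00670), a 1.59-fold rise. Among the 8, Slc25a23 and Slc25a24 were the ones past the threshold in all 16 alternatives, with adjusted p of at most 0.0234 and 0.0474. Slc25a25, the other tested paralogue, had 19.1 ± 1.0 and 19.4 ± 3.0 CPM (SD, n = 3), with a log2 fold change of 0.04, at an edgeR adjusted p of 0.870. A non-coding gene on the opposite strand, Gm17168, overlaps 168 bases of Slc25a23 exon. No gene of that name was among the annotated genes, so its level cannot be given.

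The balance of this pair was read from the ratio of Slc25a24 to Slc25a23 counts in each library, uncorrected for length. It was 2.00, 2.29 and 2.00 in wild-type and 4.56, 6.14 and 6.37 in Ahrr-deficient replicates 1, 2 and 3. The groups did not overlap, and the difference of 1.43 on the log2 scale had an exact two-sided permutation p of 0.1, the smallest that 3 libraries against 3 can give (0.2 adjusted over 8 pairs). This outcome was fixed, because Slc25a24 was higher and Slc25a23 lower in every deficient library than in every wild-type one. The ratio therefore adds no support to those calls. The ratio of Slc25a24 to Slc25a25 also did not overlap, at 2.21 ± 0.18 against 3.45 ± 0.72 (SD, n = 3; exact permutation p 0.1, adjusted 0.2). Of the 8 pairs of carriers compared, 4 did not overlap between the genotypes, these 2, Slc25a5 to Slc25a4 and Slc25a16 to Slc25a42. The pairs were chosen with the values known, and the share without overlap among other pairs of genes was not computed.

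**Figure D3:**
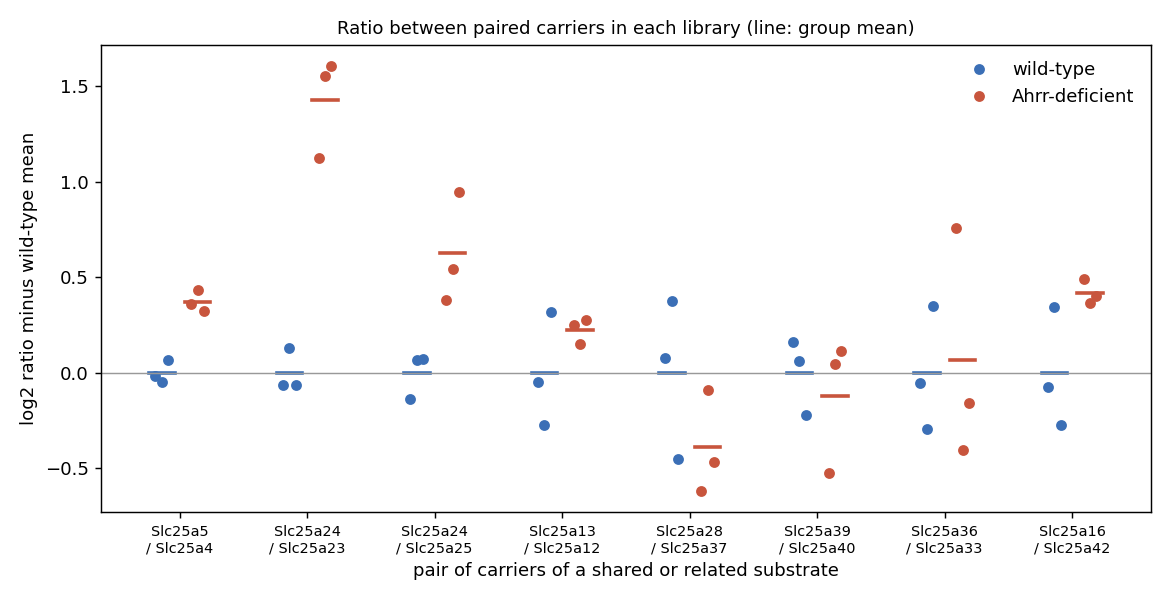
Log2 ratio between 2 carriers of a shared or related substrate in each library, with the wild-type mean of each pair set to 0 and a line for each group mean. The Slc25a24 to Slc25a23 ratio moved furthest, by 1.43, and 4 of the 8 pairs overlap between genotypes.

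Among the ADP/ATP translocases, which exchange matrix ATP for cytosolic ADP, Slc25a5 (ENSMUSG00000016319.3, chromosome X, 36795651 to 36798807) had 249, 221 and 252 CPM in the wild-type libraries against 268, 340 and 334 CPM in the deficient ones. Deficient replicate 1 lay only a little above the highest wild-type library. The log2 fold change came to 0.38 (SE 0.11, edgeR adjusted p 0.0438), a 1.31-fold rise. Of the 6 fits with a library left out, 1 kept the call, the one without Ahrr-deficient replicate 1 (0.00316). The adjusted p was 0.122, 0.147 and 0.0878 without wild-type replicates 1, 2 and 3, and 0.135 and 0.131 without Ahrr-deficient replicates 2 and 3. Of its 75-base transcript windows 19.8% occur letter for letter in transcripts of other annotated genes, so its counts are uncertain. Slc25a4 had 147, 133 and 140 CPM against 122, 147 and 155 CPM, overlapping groups with a log2 fold change of 0.02, at an edgeR adjusted p of 0.922. The Slc25a5 to Slc25a4 ratio was 1.70, 1.66 and 1.80 in wild-type and 2.21, 2.32 and 2.15 in Ahrr-deficient replicates (exact permutation p 0.1, the smallest possible, adjusted 0.2). It uses the same Slc25a5 counts, and the pair was chosen with the values known, so it adds no separate support to the Slc25a5 call. The germ-cell translocase Slc25a31 had 13 counts in all and was not tested. The phosphate carrier Slc25a3 had 390 ± 9.3 and 363 ± 14.8 CPM (SD, n = 3; log2 fold change -0.10, edgeR adjusted p 0.430).

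Of the 3 carriers of citrate and dicarboxylates, 1 fell and 2 did not pass the test, where 9.95% of all tested genes were lower. Slc25a10 (ENSMUSG00000025792.9, chromosome 11, 120491840 to 120499187), which exchanges malate or succinate for phosphate, had 26.4, 28.1 and 23.9 CPM in the wild-type libraries against 20.3, 17 and 22 CPM in the deficient ones. The groups came close to each other without overlapping. Its log2 fold change came to -0.43 (SE 0.13, edgeR adjusted p 0.0453). It was past the threshold in 2 of the 6 fits that left out a library, those without Ahrr-deficient replicate 1 (0.0239) and replicate 3 (0.0484). The adjusted p was 0.161, 0.135 and 0.0704 without wild-type replicates 1, 2 and 3 and 0.163 without Ahrr-deficient replicate 2. The antisense gene Gm11788 overlaps 228 bases of its exons, and was not among the annotated genes by that name, so its level cannot be given. Slc25a1, which exports the citrate used for fatty acid and sterol synthesis, had 72.3, 65.3 and 68.9 CPM against 52.3, 59.4 and 62.6 CPM. Its groups did not overlap, but the log2 shift of -0.24 (SE 0.09) had an edgeR adjusted p of 0.0991. Slc25a11, the oxoglutarate-malate carrier, had a log2 fold change of -0.03, at an edgeR adjusted p of 0.819.

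None of the 4 carriers of aspartate and glutamate passed the edgeR test, at 2 with an unadjusted p under 0.05, 0 in DESeq2 and 2 in limma-voom. The shares of all tested genes were 19.6% in edgeR, 35.8% at an unadjusted p under 0.05, 17.5% in DESeq2 and 24.1% in limma-voom. Slc25a12 (aralar) and Slc25a13 (citrin) drive the malate-aspartate shuttle by exporting aspartate. Slc25a12 had 36.5, 34.8 and 36.9 CPM in the wild-type libraries against 40.1, 44.9 and 47.5 CPM in the deficient ones, with an edgeR adjusted p of 0.0533. Slc25a13 had 10.1, 8.25 and 13.2 CPM against 13.6, 14.3 and 16.5 CPM, with an edgeR adjusted p of 0.0644. In both, every deficient library exceeded every wild-type library. The glutamate carriers Slc25a22 and Slc25a18 had log2 fold changes of 0.20 and -0.07 and overlapping groups. Up to 3 of the 4 were called in an alternative, the fit without Ahrr-deficient replicate 1 (edgeR adjusted p 0.0127 for Slc25a12, 0.0462 for Slc25a13 and 0.0218 for Slc25a22). In that fit 32.6% of all tested genes were called.

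Of 3 tested carriers of other amino acids, 1 rose, where 9.62% of all tested genes were higher. Slc25a44 (ENSMUSG00000050144.13, chromosome 3, 88410498 to 88425139), the importer of branched-chain amino acids, had 50.6, 50.2 and 52.4 CPM in the wild-type libraries against 61.3, 61.1 and 61.3 CPM in the deficient ones. It had the narrowest deficient group of the called members. In log2 terms the fold change was 0.26 (SE 0.08, edgeR adjusted p 0.0437). The fit without Ahrr-deficient replicate 1 kept the call (0.0319), and the other 5 fits that left out a library gave 0.187, 0.131 and 0.118 without wild-type replicates 1, 2 and 3 and 0.117 and 0.122 without Ahrr-deficient replicates 2 and 3. Slc25a38, the glycine importer of haem synthesis, had 14 ± 0.798 and 17.2 ± 1.9 CPM (SD, n = 3) without overlap (edgeR adjusted p 0.160). Slc25a15, the ornithine carrier, had 11.3 ± 1.2 and 11.8 ± 2.9 CPM (SD, n = 3; edgeR adjusted p 0.673). Slc25a2 and Slc25a29, also carriers of basic amino acids, had 40 and 34 counts in all and were not tested.

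Slc25a20 (ENSMUSG00000032602.6, chromosome 9, 108662088 to 108684641) brings acylcarnitines to the matrix for fatty acid oxidation. It had 36.9, 36.3 and 42.7 CPM in the wild-type libraries against 31.2, 22.6 and 24.3 CPM in the deficient ones. Deficient replicate 1 lay nearest to the wild-type libraries and below all of them. The log2 fold change came to -0.62 (SE 0.13, edgeR adjusted p 0.0151), or 1.53-fold higher in wild-type cells. It was past the threshold without wild-type replicate 2 (0.0405) and without Ahrr-deficient replicate 1 (0.00117). It missed it narrowly without wild-type replicates 1 and 3 (0.0555 and 0.0553) and Ahrr-deficient replicates 2 and 3 (0.0582 and 0.0603). Of the 4 tested acyltransferases of the same shuttle 1 was lower, Cpt1a, the enzyme that forms acylcarnitines at the outer membrane. It had 259 ± 22.5 and 183 ± 37 CPM (SD, n = 3; log2 fold change -0.51, edgeR adjusted p 0.0362). Cpt1a was called in 10 of 16 alternatives, and 0 to 2 genes of the list were. The share of all tested genes that were lower was 9.95%, and the list was chosen with earlier results of these data known. The Cpt1a call was lost with GC offsets (0.0558) and without wild-type replicates 1, 2 and 3 (0.112, 0.0682 and 0.11). It was also lost without Ahrr-deficient replicates 2 and 3 (0.0985 and 0.107). Cpt2, which reverses the reaction in the matrix, had a log2 fold change of -0.31, at an edgeR adjusted p of 0.0745.

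Slc25a28 and Slc25a37, the mitoferrins, import iron for haem and iron-sulfur clusters. Slc25a28 (mitoferrin-2; ENSMUSG00000040414.7, chromosome 19, 43663801 to 43674881) had 36.5, 41.4 and 29.6 CPM in the wild-type libraries against 20.3, 26.4 and 20.8 CPM in the deficient ones. Both groups were wide, and the highest deficient library lay just under the lowest wild-type one. In log2 terms the fold change was -0.63 (SE 0.15, edgeR adjusted p 0.0211). The call was lost without wild-type replicate 1 (0.0861), wild-type replicate 2 (0.0729) or Ahrr-deficient replicate 3 (0.0746). Slc25a37 (mitoferrin-1, the erythroid form) had 58.7, 54.2 and 68.7 CPM against 52.9, 47.6 and 48.7 CPM, without overlap, and an edgeR adjusted p of 0.0806 (0.0387 without Ahrr-deficient replicate 1). The 2 of 10 erythroid markers in the table, Klf1 and Alas2, were at or under 0.823 CPM in sum in every library. Of the 18 tested genes of haem and iron-sulfur synthesis 5 were lower and 1 higher, where 9.95% of all tested genes were lower and 9.62% higher. With the replicate block 2 were lower and 0 higher. The list was chosen with earlier results of these data known, so its share is a description and not a test. Iscu, the scaffold on which iron-sulfur clusters form, had 76, 86.9 and 62 CPM in the wild-type libraries against 40.7, 37.8 and 41.1 CPM in the deficient ones (log2 fold change -0.92, SE 0.12, edgeR adjusted p 0.00310). Ppox, Hscb, Uros and Urod were lower with edgeR adjusted p-values of 0.0148, 0.0275, 0.0398 and 0.0426. Alas1, the first enzyme of haem synthesis, was higher (log2 fold change 0.31, edgeR adjusted p 0.0441). Over the 16 alternatives 1 to 7 genes of this list were called. Iscu was called in all 6 fits with a library left out and Ppox in 3, the exceptions being those without wild-type replicate 1 (0.0702), wild-type replicate 3 (0.0535) and Ahrr-deficient replicate 3 (0.0547). Hscb, Uros, Urod and Alas1 were called in 1 of the 6, that without Ahrr-deficient replicate 1, and lay between 0.0571 and 0.166 in the other 5.

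The glutathione carriers did not pass the test, with 0 of 2 called by edgeR, DESeq2 or limma-voom and 0 at an unadjusted p under 0.05. For all tested genes the shares were 19.6%, 17.5%, 24.1% and 35.8%, so 0 of 2 says little. Slc25a39 had 136 ± 5.2 and 119 ± 14.2 CPM (SD, n = 3; edgeR adjusted p 0.211), and its paralogue Slc25a40 had 12.8 ± 1.3 and 12.2 ± 1.5 CPM (edgeR adjusted p 0.655). Among 11 tested genes of glutathione synthesis and mitochondrial peroxide removal, 3 were lower and 0 higher: Gsr, which regenerates glutathione (log2 fold change -0.53, edgeR adjusted p 0.00629), Gpx1 (-0.57, 0.0203) and Txnrd2 (-0.36, 0.0482). Of all tested genes 9.95% were lower and 9.62% higher, and between 1 and 5 of the list were called in the alternatives. This list too was chosen with earlier results of these data known. Gsr was called in all 6 fits with a library left out. Gpx1 was lost without wild-type replicates 1 and 3 and Ahrr-deficient replicate 2 (0.0772, 0.0632 and 0.0719), and Txnrd2 in all (0.0641 to 0.187) but that without Ahrr-deficient replicate 1 (0.0367).

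Of the 9 carriers of nucleotides, coenzymes and vitamins, 0 were called by edgeR and by DESeq2, 1 by limma-voom, and 2 had an unadjusted p under 0.05. Among all tested genes 19.6%, 17.5% and 24.1% were called by these 3 methods, and 35.8% had an unadjusted p under 0.05. Slc25a36, 1 of the 2 carriers at that unadjusted p, is a pyrimidine nucleotide carrier. It had 154, 168 and 143 CPM in the wild-type libraries against 141, 117 and 115 CPM in the deficient ones, with a log2 fold change of -0.32, at an edgeR adjusted p of 0.0548. Its nearest libraries, wild-type 3 and deficient 1, were almost equal, and it was called without Ahrr-deficient replicate 1 (0.00416). Slc25a16, linked to coenzyme A supply, had 30.3 ± 0.6 and 35.1 ± 2.3 CPM (SD, n = 3) without overlap (edgeR adjusted p 0.163). The folate carrier Slc25a32 had a log2 fold change of 0.24, at an edgeR adjusted p of 0.186. The NAD carrier Slc25a51 had 91.9 ± 5.5 and 99.6 ± 8.7 CPM (edgeR adjusted p 0.356). Slc25a17, Slc25a26, Slc25a33 and Slc25a42 had overlapping groups and log2 fold changes of 0.10, -0.07, -0.23 and -0.26.

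Slc25a46 (ENSMUSG00000024259.8, chromosome 18, 31556111 to 31609911) differs from the rest in lying in the outer membrane, where it takes part in mitochondrial fusion and division. It had 52.3, 49.3 and 49.9 CPM in the wild-type libraries against 68.2, 67.6 and 65.5 CPM in the deficient ones. Both groups were tight, with a wide gap between them. The log2 fold change came to 0.41 (SE 0.08, edgeR adjusted p 0.00963), a 1.32-fold rise. Without wild-type replicate 1 or 3 the adjusted p was 0.0536 or 0.0508, and it was at most 0.0468 in the other 4 such fits. B930094E09Rik overlaps 383 bases of its exons on the opposite strand and did not exceed 0.351 CPM in any library. Of 9 other genes of mitochondrial fusion and division, 0 were called by edgeR and DESeq2 and 1 by limma-voom, with 2 at an unadjusted p under 0.05. The shares of all tested genes were 19.6% by edgeR, 17.5% by DESeq2, 24.1% by limma-voom and 35.8% at an unadjusted p under 0.05. In a list of 9 genes such counts cannot be told from these shares.

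The remaining carriers did not pass the edgeR test. Slc25a43, whose substrate is not assigned, had 2.50, 3.34 and 2.88 CPM in the wild-type libraries against 5.01, 4.25 and 3.63 CPM in the deficient ones, without overlap (log2 fold change 0.58, SE 0.21, edgeR adjusted p 0.0828). It lies 18448 bases from Slc25a5 on chromosome X and on the same strand. Slc25a35, Slc25a45 and Slc25a53 had log2 fold changes of 0.16, -0.07 and -0.17, and the uncoupling protein-like Slc25a14 and Slc25a30 of 0.01 and 0.11, all with overlapping groups. Slc25a34 and Slc25a47 had 15 and 40 counts in all and were not tested. Slc25a47 lies 162 bases from Slc25a29, on the opposite strand.

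**Figure D4:**
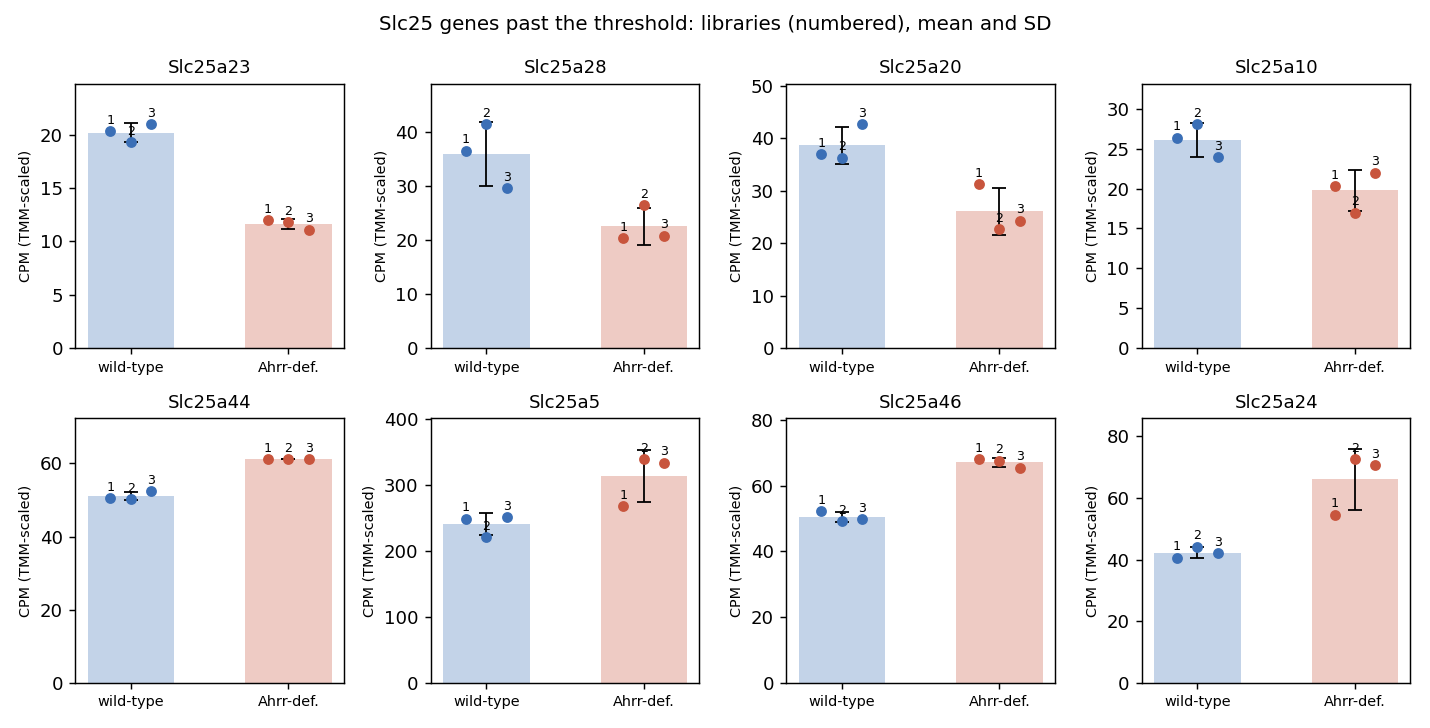
CPM of the 8 called Slc25 genes in each library (points numbered by replicate), with bars for the group mean and lines for the SD (n = 3), axes starting at 0. No gene has overlapping groups, and Slc25a23, Slc25a44 and Slc25a46 show the smallest spread beside the difference.

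Members with higher GC content tended to have lower log2 fold changes. Spearman's rho was -0.35 across the 37 tested members and -0.28 across the 11394 tested genes with a GC value, given as a description because genes share libraries. With offsets for GC content, 7 members were called, 6 of them among the 8, and 17.7% of all tested genes. Slc25a10, the member with the highest GC content (60.6%), then stood at -0.24 (edgeR adjusted p 0.242) and Slc25a5 at 0.37 (0.0528), while Slc25a36 was called (-0.46, 0.00744). Slc25a23 and Slc25a24 had log2 fold changes of -0.68 and 0.56 and stayed past the threshold (0.00625 and 0.0245). Slc25a46, of low GC content, went from 0.41 to 0.27 and was still called (0.046).

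**Figure D5:**
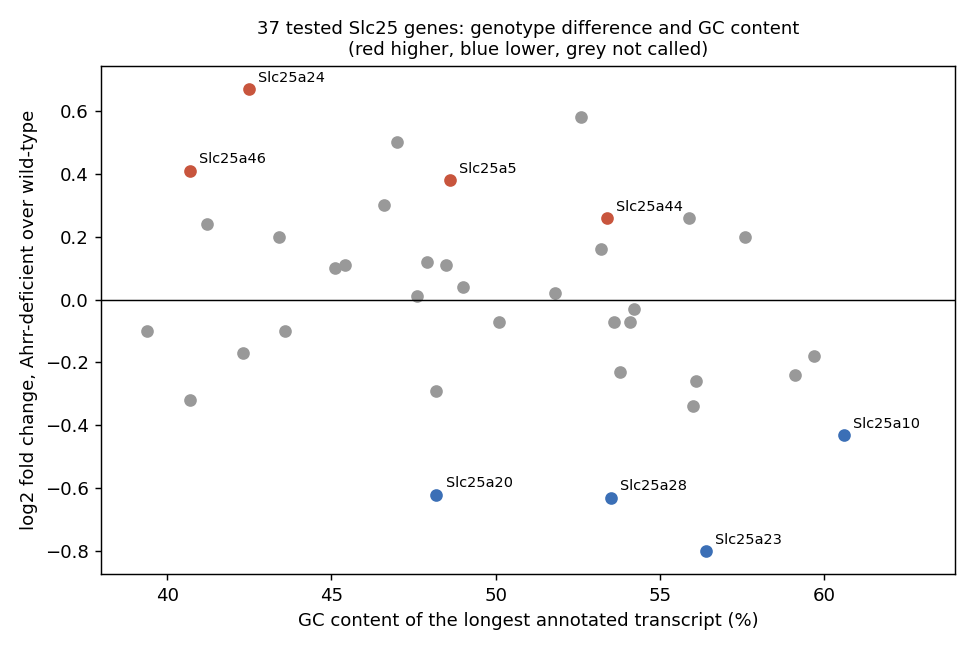
Log2 fold change of the 37 tested Slc25 genes against the GC content of the longest annotated transcript in percent, called genes named. Slc25a46 and Slc25a24 lie at low GC content and Slc25a10 and Slc25a23 at high GC content, with Spearman's rho of -0.35.

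The machinery and partners of the carriers were read from lists chosen with earlier results of these data known, so the shares are descriptions. Of 14 tested genes of carrier import, 1 was higher: Timm9, a small chaperone of the space between the membranes, with 9.92, 10.5 and 10.7 CPM in the wild-type libraries against 13.1, 18.7 and 14.6 CPM in the deficient ones (log2 fold change 0.65, edgeR adjusted p 0.0198). It was called in 10 of 16 alternatives. The losses among the fits with a library left out were those without wild-type replicates 1, 2 and 3 (0.11, 0.0643 and 0.0604) and Ahrr-deficient replicate 2 (0.0932). In all, 0 to 7 genes of the list were called in the alternatives. Timm22, the insertion channel, had a log2 fold change of 0.18, at an edgeR adjusted p of 0.359. Of 25 tested transporters of mitochondrial membranes outside the set, 6 were higher and 2 lower, where 9.62% of all tested genes were higher and 9.95% lower, and 3 to 14 were called in the alternatives. Among the higher genes were the porins Vdac2 and Vdac3 (log2 fold changes 0.35 and 0.63), the calcium uniporter subunit Mcub (0.70, edgeR adjusted p 0.00585), the sideroflexin Sfxn2 (0.55, 0.0249) and the distant family member Mtch2 (0.39, 0.0248). The 2 lower genes were the uncoupling proteins Ucp2, at 2448 ± 87.6 and 1146 ± 291 CPM (SD, n = 3; edgeR adjusted p 0.00594), and Ucp3, with a log2 fold change of -2.93. Ucp2, Ucp3 and Mcub were called in all 6 fits with a library left out, and Vdac3 in all but that without wild-type replicate 1 (0.0644). Vdac2, Sfxn2 and Mtch2 were called in 1 of the 6, that without Ahrr-deficient replicate 1, and lay between 0.0542 and 0.138 in the other 5. Of 10 tested partners of the malate-aspartate shuttle and of citrate export 1 was higher, Acaca, which starts fatty acid synthesis (log2 fold change 1.01, edgeR adjusted p 0.00244).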

How the data were processed

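Fetal liver macrophage cultures were profiled by RNA sequencing (TruSeq RNA kit, 100 ng RNA, single 75 bp reads, per the labels' protocols). The submitters' processing notes name CASAVA 1.8.2, fastp 0.20.0, STAR 2.7.10b, SAMtools 1.16.1, R 4.3.1, DESeq2 1.40.2 and the build mm10; the counting program, its strand setting and the annotation are not given in the sources used here. The authors deposited raw read counts for 53465 features without identifiers, and a normalized signal (counts divided by size factors) for 16111 named genes. Each deposited signal value was a whole multiple of 1 read (100% within 0.001 reads), and the recovered reads equal the raw counts of features with a total of at least 10, so these counts were used.

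Libraries were grouped by title. The fit was edgeR 4.0.16 under R 4.3.3, quasi-likelihood F test (TMM, filterByExpr, genotype only, all 6 libraries), two-sided, with Benjamini-Hochberg adjustment over 11408 tested genes and a threshold of 0.05. The 37354 features without identifier, at most 0.0511% of the counts of a library, entered totals. SEs come from the fold change and F. A share of 3 counts is 0.072 to 0.844 CPM, covering counting error only. On simulated counts the fit called 95 of 100 genes changed 2-fold and 23 of 11124 unchanged ones. The changed genes had a mean count of 50 or more. Changes under 2-fold, the size of those of the called carriers, were not simulated. Replicate libraries differed by more than sampling noise (chi-square per degree of freedom of at least 5.79). Coordinates, exon lengths and GC content are from GENCODE release 21 (GRCm38, the same build as mm10). Overlapping genes on opposite strands and near-identical copies make counts uncertain. Alternatives were RLE and upper-quartile scaling, no filter, a mean count of 50 or more, limma-voom (limma 3.58.1), DESeq2 1.42.0, the replicate block, GC offsets (lowess, span 0.3), both together, each library left out, and, added after seeing the data, 2 libraries left out.

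Members are described by substrate; those past the threshold are given in full, and of each partner list at most 6 past the threshold with the smallest adjusted p and a mean of at least 20 counts. Cpt2, Timm22 and Vdac2 were named outside this rule, after their values were seen. Members and lists were chosen with earlier results of these data known. The values of 1 member and 1 partner gene are not reported here; both stay in the counts.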

Additional observations from a re-analysis of the deposited data

How the results depend on the processing

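Under 16 alternatives 207 values were computed again: 136 held (same sign and same call, or a count within 1.5 times) and 0 reversed. Of 128 recomputed log2 fold changes of the 8 called carriers, 39 lost the call. Fits that left out 1 library gave 2 to 14 called carriers (1 to 7 higher, 1 to 7 lower) and 694 to 3857 genes in all. The log2 fold change of Ahrr then ranged from -1.69 to -1, and its call was lost at -1.29 without wild-type replicate 1 (edgeR adjusted p 0.0631) and at -1.18 without wild-type replicate 3 (0.0502). Upper-quartile scaling gave 2 carriers higher and 6 lower. With the replicate block, 5 carriers (2 higher, 3 lower; Slc25a20, Slc25a23, Slc25a24, Slc25a28 and Slc25a46) and 1390 genes were called, and of the haem and iron-sulfur list 2 lower and 0 higher. The replicate block with GC offsets gave 2 higher and 4 lower carriers and 1276 genes. Between libraries sharing a number, departures from the genotype mean correlated at -0.169, 0.0714 and 0.129 for replicates 1, 2 and 3. Of the wild-type libraries, replicate 3 correlated best with its own number and replicates 1 and 2 did not. With 3 libraries per group, these values cannot decide whether equal numbers mark a shared batch or litter. The fit with a mean of at least 50 counts gave no value for Ahrr, which that filter removed. The cause of these changes was not tested. DESeq2 did not call Slc25a10 (adjusted p 0.0676) or Slc25a44 (0.114), upper-quartile scaling did not call Slc25a5 or Slc25a44, and the replicate block with GC offsets did not call Slc25a46. Depth limits Slc25a2, Slc25a29, Slc25a31, Slc25a34 and Slc25a47, with 13 to 40 counts over 6 libraries.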

Other observations

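Genes that keep and copy mitochondrial DNA and its nucleotides were described from a list of 11, of which 10 were tested. Of these 3 were lower in Ahrr-deficient cells and 0 higher, where 9.95% of all tested genes were lower and 9.62% higher. In the alternatives 1 to 4 were called. This list and those below were chosen with earlier results of these data known, so the shares are descriptions. Polg, the catalytic subunit of the mitochondrial DNA polymerase, had 15.3 ± 2.6 CPM in wild-type and 5.80 ± 0.20 CPM in Ahrr-deficient cells (SD, n = 3; log2 fold change -1.35, edgeR adjusted p 0.00228). The mitochondrial deoxynucleoside kinases Dguok and Tk2 were lower, with edgeR adjusted p-values of 0.0253 and 0.045. Polg was called in all 6 fits with a library left out, and Dguok and Tk2 in 1, that without Ahrr-deficient replicate 1 (0.0621 to 0.149 in the others). Messenger RNA encoded by mitochondrial DNA took 1.44% to 1.95% of the counts in wild-type and 1.89% to 2.22% in Ahrr-deficient libraries, and the groups overlapped.

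In mitochondrial one-carbon metabolism, 2 of 7 tested genes were higher and 1 lower, with 1 to 4 called in the alternatives. For this list and those below, the share of all tested genes was 9.62% higher and 9.95% lower. Amt, of the glycine cleavage system, was lower (log2 fold change -1.03, edgeR adjusted p 0.00629) and Dld, its shared dehydrogenase, higher (0.39, 0.0125). Mthfd2 was called higher at 1.86 (edgeR adjusted p 0.0420), but its groups overlapped, with 13.1 CPM in Ahrr-deficient replicate 1 against 110 and 66.8 CPM in replicates 2 and 3. It was called without Ahrr-deficient replicate 1 (5.84e-04) and lay between 0.0997 and 0.148 in the other 5 fits with a library left out. Dld was lost without wild-type replicates 1, 2 and 3 (0.0582, 0.0623 and 0.0589). Among 8 tested genes of ornithine, arginine and branched-chain amino acid metabolism, 2 were higher and 1 lower. Dbt and Bckdha, subunits of the dehydrogenase that degrades branched-chain keto acids, went in opposite directions (log2 fold changes 0.59 and -0.46, edgeR adjusted p 0.00604 and 0.0306). Bckdha was lost without wild-type replicates 1 and 3 (0.163 and 0.0875) and Ahrr-deficient replicates 2 and 3 (0.0863 and 0.0631). Of 13 tested genes of coenzyme synthesis, 1 was higher, Nampt (log2 fold change 0.72, edgeR adjusted p 0.0102), and 1 lower, Nadk (-0.33, 0.0419). Nampt was lost without wild-type replicate 1 (0.0501), and Nadk in each fit with a library left out (0.0954 to 0.138) but that without Ahrr-deficient replicate 1 (0.00219).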
